A study of Homo sapiens with 4 samples.

Results

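MAT2A and 9 other genes of the methionine and polyamine cycles were followed in 22Rv1 and PC3 prostate cancer cells given morusin, a prenylated flavonoid of mulberry root bark. The 10 genes, of 60617 gene entries in the expression table, were chosen by symbol for their place in the pathway: MAT2A, MAT2B, METTL16, AHCY, MTR, MTAP, AMD1, SRM, SMS and ODC1. MAT2A was in addition selected on its measured levels, because it was lower with morusin in both lines, so its difference is described and not tested. RNA was sequenced in 4 libraries, 1 for each of these groups: 22Rv1 with 75 µM morusin for 6 h, 22Rv1 without morusin (0 µM), PC3 with 46 µM morusin for 6 h, and PC3 without morusin (0 µM). 22Rv1 cells were grown in RPMI medium and PC3 cells in F12 medium, both with heat-inactivated fetal bovine serum and antibiotics. Dose and medium therefore differed between the lines, and any effect of the line cannot be told apart from theirs. The labels do not say whether the untreated cells received a solvent.

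Methionine adenosyltransferase joins methionine to ATP to form S-adenosylmethionine (SAM), the methyl donor for RNA, DNA, histones and small molecules. After the methyl group is given away, S-adenosylhomocysteine is split by AHCY to homocysteine, which MTR can methylate back to methionine. SAM also feeds polyamine synthesis: AMD1 decarboxylates it, and SRM and SMS use the product to turn putrescine, made by ODC1, into spermidine and spermine, while MTAP recovers the by-product toward methionine. Prostate epithelium is known for its high polyamine output, much of it secreted into seminal fluid.

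Values were deposited as FPKM, fragments per kilobase of transcript and of mapped fragments in the library, which allows levels of different genes to be set side by side. Depth, inferred roughly from the steps of low values, was 19.1 and 23.5 M read pairs (M, mega) for morusin and untreated 22Rv1, and 28.7 and 40.6 M for morusin and untreated PC3. The summed level of 4 epithelial markers was 323 FPKM in morusin and 322 FPKM in untreated 22Rv1, and 282 and 246 FPKM in morusin and untreated PC3, although CDH1 was under 1 FPKM in both PC3 libraries. Of 8 prostate luminal markers, 5 were under 1 FPKM in both PC3 libraries, with KLK2 and KLK3 at 0. The summed luminal level was 787 and 799 FPKM in morusin and untreated 22Rv1, and 103 and 179 FPKM in morusin and untreated PC3. In PC3 that sum was mostly HOXB13, at 100.1 FPKM with morusin and 175 FPKM without, and the part of this difference in the results below was not tested. All 5 leukocyte markers were under 1 FPKM in every library, with sums of 0.212 to 0.547 FPKM. Fibroblast marker sums were 2.31 to 3.87 FPKM and endothelial marker sums 0 to 1.97 FPKM. These are bulk samples, in which fewer expressing cells and less RNA per cell cannot be told apart.

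MAT2A encodes the catalytic subunit of methionine adenosyltransferase outside the liver. Its level was 39.1 FPKM in morusin 22Rv1, against 86.5 FPKM in untreated 22Rv1. In PC3 it was 47.2 FPKM with morusin, against 178 FPKM without. The untreated lines thus differed in MAT2A far more than the morusin cultures did, and PC3 had the higher level in both states. As log2((morusin FPKM + 1)/(untreated FPKM + 1)), the scale of every change below, MAT2A stood at -1.12 in 22Rv1 and -1.89 in PC3. Counting error of the log2 ratio, estimated from the inferred read pairs and covering counting only, was 0.037 in 22Rv1 and 0.025 in PC3. MAT2A had the 69th lowest change of 13361 measured genes in 22Rv1 and the 23rd lowest of 12907 in PC3, where a gene counts as measured if either library of the line has it at 1 FPKM or more. These ranks describe the values MAT2A was selected on.

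**Figure D1:**
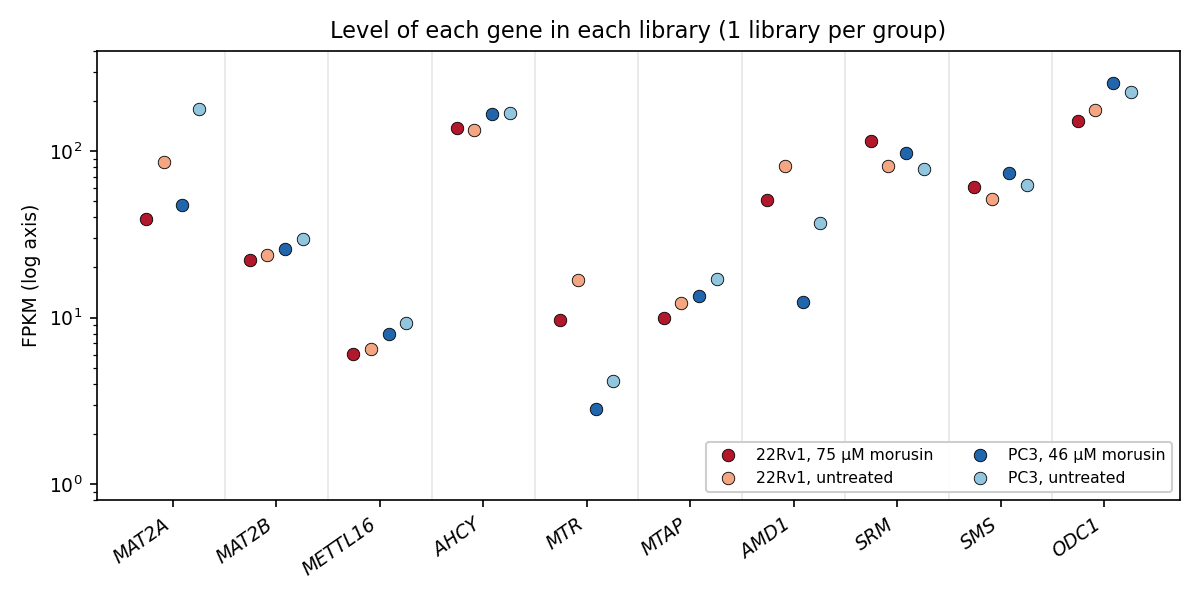
FPKM of the 10 genes in the 4 libraries on a log axis, 1 point per library, with morusin left of untreated in each line. MAT2A (39.1 against 86.5 FPKM in 22Rv1, 47.2 against 178 FPKM in PC3) and AMD1 (51.0 against 81.7 FPKM in 22Rv1, 12.3 against 36.9 FPKM in PC3) show the widest steps in PC3, MAT2A and MTR (9.68 against 16.9 FPKM) in 22Rv1, while AHCY lies nearly level.

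MAT2A transcripts are known to carry 3′ UTR hairpins that METTL16, an RNA N6-methyladenosine (m6A) methyltransferase, binds and methylates, which couples their splicing and stability to SAM. The gene lies at chr2:85539165-85545280 on the plus strand (GRCh38), and its principal GENCODE 29 transcript has 9 exons with a 3′ UTR of 1508 bases in the last. The METTL16-type motif, TACAGAGAA or TACAGAAAA, was found 6 times in that UTR. The 6 sites are shown because they are the feature of the MAT2A transcript that connects it to METTL16, itself among the 10 genes. Capitals mark the 9-base motif within 10 bases on either side, in the sense of the transcript:
site 1, chr2:85543802-85543830: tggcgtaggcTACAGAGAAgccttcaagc
site 2, chr2:85544589-85544617: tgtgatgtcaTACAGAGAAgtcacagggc
site 3, chr2:85544774-85544802: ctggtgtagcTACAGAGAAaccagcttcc
site 4, chr2:85544889-85544917: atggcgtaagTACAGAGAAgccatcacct
site 5, chr2:85545004-85545032: caaggtgtccTACAGAAAAaccttgggtt
site 6, chr2:85545112-85545140: gctggtgtggTACAGAGAAgccagcttgt

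The flanks of each site can pair with each other: runs of 4 to 6 paired bases, with G-U pairs allowed, close every motif. Of 19240 transcripts with a 3′ UTR, 1 per gene, 762 (3.96%) held the motif at least once, and MAT2A was the 1 that held it 6 times. Among 2607 UTRs of 1207 to 1884 bases, 3.84% held it, and none but MAT2A held it more than 1 time. The 3′ UTRs of the other 9 genes held no match. The last 558 bases of MAT2A, which hold sites 3 to 6, overlap the opposite-strand gene GGCX, a vitamin K-dependent carboxylase gene. GGCX stood at 3.37 and 2.75 FPKM in morusin and untreated 22Rv1, and at 4.52 and 5.95 FPKM in morusin and untreated PC3. No label states a strand setting for the counting, so reads of the 2 genes in the overlap cannot be told apart. Processed pseudogenes of AHCY, AMD1, MTAP and SRM, with which reads could be shared, had at most 0.175 FPKM.

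**Figure D2:**
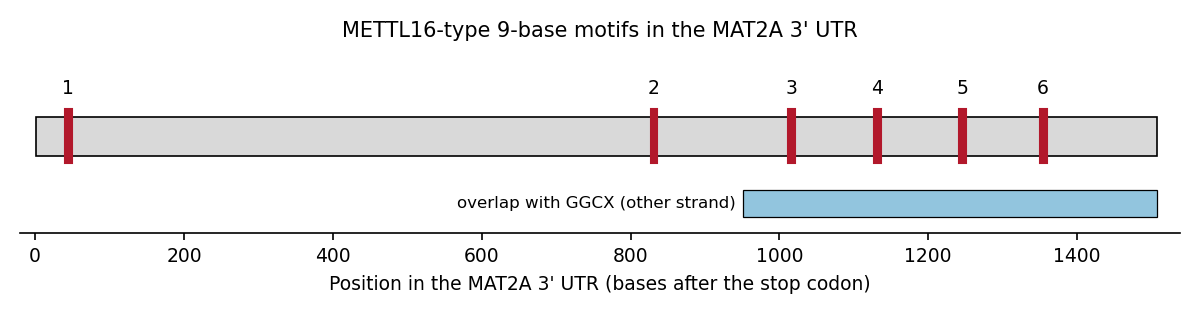
Map of the MAT2A 3′ UTR drawn to scale, with the distance in bases from its start on the x axis, the 6 METTL16-type motifs and the stretch shared with GGCX. The first motif lies at base 40 and the other 5 between base 827 and base 1350, with 4 of the 6 inside the GGCX overlap, which begins at base 951.

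The regulatory partners of MAT2A differed little with morusin. MAT2B, the regulatory subunit of the enzyme, stood at 22.0 FPKM in morusin and 23.6 FPKM in untreated 22Rv1, and at 25.7 FPKM in morusin and 29.8 FPKM in untreated PC3. METTL16 was among the lowest of the 10 genes, with 6.08 and 6.47 FPKM in morusin and untreated 22Rv1 and 8.02 and 9.27 FPKM in morusin and untreated PC3. Log2 changes of MAT2B were -0.10 in 22Rv1 and -0.20 in PC3, and those of METTL16 were -0.08 and -0.19. The ratio of MAT2A to MAT2B, which needs no scaling between libraries, was 1.78 with morusin and 3.66 without in 22Rv1, and 1.83 with morusin and 5.97 without in PC3. As MAT2B differed little, the lower ratio with morusin in both lines mostly restates the difference MAT2A was selected on.

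AHCY and MTR carry the cycle from S-adenosylhomocysteine back to methionine. AHCY, the hydrolase, was abundant and nearly level: 138 FPKM in morusin and 134 FPKM in untreated 22Rv1, 167 FPKM in morusin and 170 FPKM in untreated PC3, with log2 changes of 0.05 and -0.03. MTR, the cobalamin-dependent methionine synthase, stood at 9.68 FPKM in morusin and 16.9 FPKM in untreated 22Rv1, and at 2.84 FPKM in morusin and 4.17 FPKM in untreated PC3. Its log2 changes were -0.74 in 22Rv1 and -0.43 in PC3, with counting errors of 0.040 and 0.060. MTR has the longest transcript of the 10, at 10529 bases, and its values depended on length: with the trend of change on transcript length removed they were -0.28 and -0.17. MAT2A at 2819 bases kept -1.12 and -1.89 under the same step. The MAT2A to AHCY ratio was 0.283 with morusin and 0.646 without in 22Rv1, and 0.283 with morusin and 1.04 without in PC3. With AHCY nearly level, this ratio too mostly restates the difference MAT2A was selected on.

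MTAP cleaves methylthioadenosine, the by-product of spermidine and spermine synthesis, and starts the salvage of its methionine. It was detected in both lines, at 9.91 FPKM in morusin and 12.3 FPKM in untreated 22Rv1 and at 13.4 FPKM in morusin and 17.0 FPKM in untreated PC3. Its log2 changes were -0.28 and -0.31, and with the length trend removed they were 0.05 in 22Rv1 and -0.10 in PC3, so that no direction can be given in 22Rv1.

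ODC1 and AMD1 are the regulated entry points of polyamine synthesis, and their proteins turn over fast. ODC1, which makes putrescine from ornithine, had the highest level of the 10 genes in every library. It stood at 152 FPKM in morusin and 177 FPKM in untreated 22Rv1, and at 256 FPKM in morusin and 228 FPKM in untreated PC3. Its log2 change was -0.22 in 22Rv1 and 0.17 in PC3, opposite in sign and each past 1.96 counting errors, which were 0.021 and 0.014.

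AMD1, the SAM decarboxylase, was lower with morusin in both lines. Its level was 51.0 FPKM in morusin and 81.7 FPKM in untreated 22Rv1, and 12.3 FPKM in morusin and 36.9 FPKM in untreated PC3. Log2 changes were -0.67 in 22Rv1 and -1.51 in PC3, with counting errors of 0.031 and 0.046, and -0.57 and -1.45 with the length trend removed. AMD1 had the 865th lowest change in 22Rv1 and the 60th lowest in PC3. The ratio of ODC1 to AMD1 RNA was 2.97 with morusin and 2.17 without in 22Rv1, and 20.8 with morusin and 6.17 without in PC3.

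SRM and SMS, the aminopropyltransferases that make spermidine and spermine, were above their untreated levels in both lines. SRM stood at 114 FPKM in morusin and 81.9 FPKM in untreated 22Rv1, and at 97.1 FPKM in morusin and 78.5 FPKM in untreated PC3, with log2 changes of 0.48 and 0.30. SMS stood at 61.2 FPKM in morusin and 51.3 FPKM in untreated 22Rv1, and at 73.5 FPKM in morusin and 62.2 FPKM in untreated PC3, with log2 changes of 0.25 and 0.24. The AMD1 to SRM ratio, the decarboxylase over the enzyme that uses its product, was 0.446 with morusin and 0.998 without in 22Rv1, and 0.127 with morusin and 0.470 without in PC3. SRM and SMS have the shortest transcripts of the 10 genes, and without the length trend SRM stood at 0.13 in both lines and SMS at 0.05 in 22Rv1 and 0.12 in PC3.

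Of the 10 genes, 1 was at least 2-fold lower in 22Rv1 (MAT2A) and 2 were in PC3 (MAT2A and AMD1), and 0 were at least 2-fold higher in either line. Over all measured genes, 1.02% were at least 2-fold lower and 3.48% at least 2-fold higher in 22Rv1, and 2.64% were lower and 1.24% higher in PC3. MAT2A was selected on this contrast, so its part in these counts carries no weight. Without it, the counts of 2-fold lower genes were 0 of 9 in 22Rv1 and 1 of 9 in PC3. The median change of these 9 genes was -0.10 in 22Rv1 and -0.19 in PC3, against -0.01 and -0.05 over all measured genes, and 6 of 9 lay below 0 in each line, against 50.6% of all genes in 22Rv1 and 55.8% in PC3. With the length trend removed, 5 of 9 lay below 0 in each line, against 52.26% of all genes in 22Rv1 and 55.05% in PC3. Of 11240 genes measured in both lines, 35 were at least 2-fold lower in both. The all-gene median depends on scaling: with each library rescaled to the same FPKM sum it was -0.18 in 22Rv1 and -0.14 in PC3, and the share of 2-fold differences that were higher was 42.1% in 22Rv1 in place of 77.4%. AHCY then stood at -0.15 in 22Rv1 and -0.13 in PC3.

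**Figure D3:**
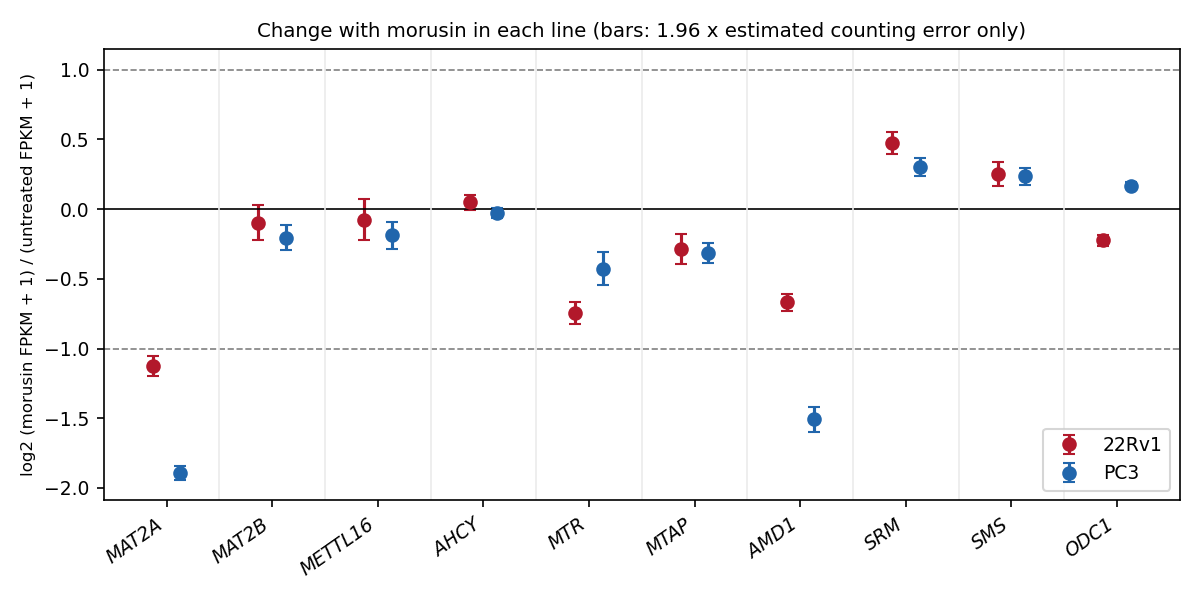
Log2 change with morusin of each of the 10 genes, 22Rv1 and PC3 side by side, with bars of 1.96 estimated counting errors of the FPKM ratio. MAT2A lies lowest in both lines (-1.12 in 22Rv1, -1.89 in PC3), followed by MTR (-0.74) in 22Rv1 and AMD1 (-1.51) in PC3, SRM and SMS lie above 0 in both lines, and ODC1 lies on opposite sides of 0.

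**Figure D4:**
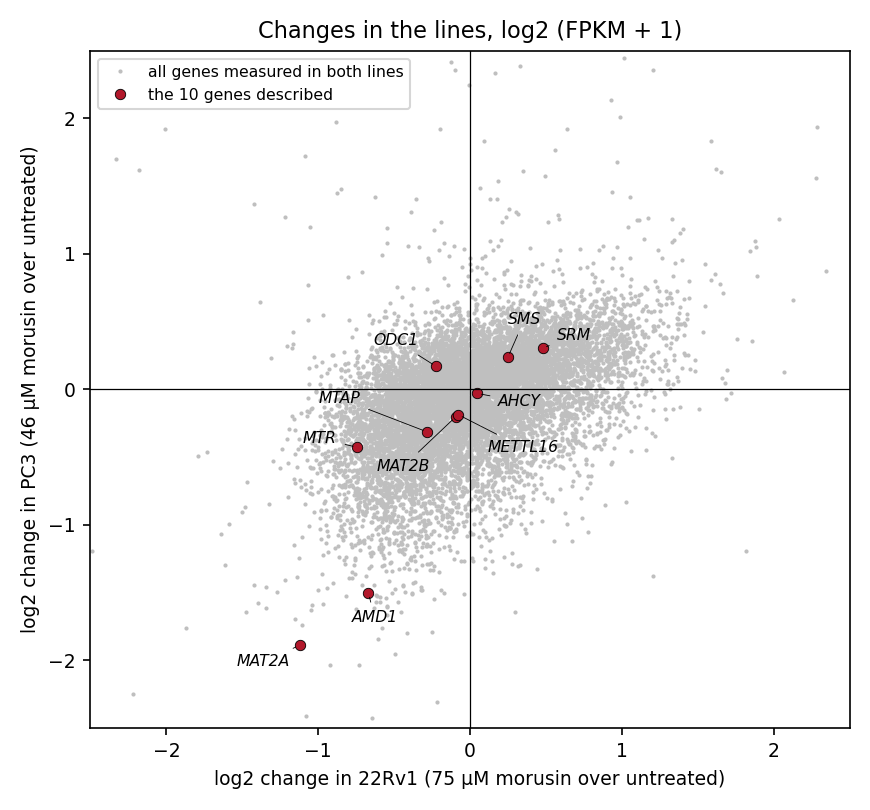
Log2 change in 22Rv1 (x axis) against that in PC3 (y axis) for the 11240 genes measured in both lines, with the 10 genes named; 56 genes lie beyond the axis limits. MAT2A and AMD1 lie apart from the other 8 genes, which stay within 1 log2 unit of 0 on both axes.

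A shared treatment effect over both lines was fitted to all 4 libraries with limma, with the line as covariate and 1 residual degree of freedom. Of 13980 genes, 0.236% were called lower and 0.351% higher at a Benjamini-Hochberg adjusted p of 0.05. For MAT2A only the effect is given, -1.51, since the gene was chosen by it. Of the other 9 genes, 0 were called by limma, and 2 had an unadjusted p under 0.05, against 18.5% of all genes. These were AMD1, with a log2 effect of -1.09 (SE 0.232, 95% interval -1.61 to -0.56) and a limma adjusted p of 0.0996, and MTR, with -0.59 (SE 0.221) and a limma adjusted p of 0.214, which ran from 0.189 to 0.657 over the alternatives. Both were lower in 2 of 2 lines. SRM had an effect of 0.39 with an adjusted p of 0.286 by limma, and 0.147 to 0.659 over the alternatives. For AMD1 the limma adjusted p ran from 0.0608 under median centring to 0.657 with no filter on low levels.

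The lines differed before treatment. The untreated log2 level in 22Rv1 minus that in PC3 was -1.03 for MAT2A (86.5 FPKM in 22Rv1, 178 FPKM in PC3), 1.79 for MTR and 1.13 for AMD1. Among genes at 1 FPKM or more in at least 1 untreated library, 39.0% differed at least 2-fold between the untreated lines. Under morusin, the difference of 22Rv1 over PC3 was -0.26 for MAT2A, 1.96 for AMD1, 1.47 for MTR and -0.75 for ODC1. The change in 22Rv1 minus that in PC3 was 0.77 for MAT2A and 0.84 for AMD1, each with the deeper difference in PC3, and no test of it is possible with 1 library per group. The place of MAT2A in the order of levels differed too. In PC3, MAT2A ranked 5 of the 10 genes with morusin and 2 without, behind ODC1. In 22Rv1 it ranked 6 with morusin and 3 without. These places rest on the levels MAT2A was selected on.

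The genes lie apart in the genome, with MTR and SRM on chromosome 1, MAT2A and ODC1 on 2, MAT2B on 5, AMD1 on 6, MTAP on 9, METTL16 on 17, AHCY on 20 and SMS on X. The 250 bases before and 50 after each annotated start were read for all 10 genes from RefSeq (GRCh38.p14). A TATAA box within 50 bases before the start, on the gene's strand, was found for MAT2A, AMD1 and ODC1, 3 of the 10 genes, against 4.74% of 35116 promoters and 5.96% of 27305 genes; this motif was looked for after the sequences had been read. The hexamer CACGTG, the E-box that MYC and related factors bind, was found on either strand for SRM and ODC1 and in 7.26% of promoters and 8.78% of genes. They are shown because these 4 genes include both genes with 2-fold differences and the regulated steps of polyamine synthesis. Capitals mark the motif, and each is written 5′ to 3′ on the gene's strand:
MAT2A, chr2:85539068-85539167, plus strand: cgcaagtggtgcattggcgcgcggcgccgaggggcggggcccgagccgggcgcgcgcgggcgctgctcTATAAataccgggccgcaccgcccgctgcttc
AMD1, chr6:110874685-110874784, plus strand: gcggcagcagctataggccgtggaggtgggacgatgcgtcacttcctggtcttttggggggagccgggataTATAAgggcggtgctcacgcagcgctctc
ODC1, chr2:10448328-10448427, minus strand: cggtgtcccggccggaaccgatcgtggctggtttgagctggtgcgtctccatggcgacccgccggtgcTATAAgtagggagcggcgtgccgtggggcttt
SRM, chr1:11060185-11060244, minus strand: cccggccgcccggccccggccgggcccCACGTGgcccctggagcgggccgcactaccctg
ODC1, other start, chr2:10448013-10448072, minus strand: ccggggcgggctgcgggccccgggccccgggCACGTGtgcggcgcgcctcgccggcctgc

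The TATAA box began 32 bases before the start in MAT2A and ODC1 and 29 bases before it in AMD1. Of the other motifs searched on both strands, TGACGTCA (cAMP response element, 2.25% of genes), TGATGCAA (1.08%) and TGATGCAT (0.568%), both C/EBP-ATF sites, and GAANNTTC (heat shock element, 8.21%) had no match in the 10 genes. TGANTCA, which lets any base stand in the middle of the AP-1 site (9.37% of genes), was found for AHCY as TGAATCA. This loose pattern takes in more than AP-1 sites. TGCGCNC (metal response element, 23.0%) was found for MTR and SMS. These matches are letters in a window and say nothing of binding in these cells.

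Around the 10 genes, 13 lists of pathway genes were read. They hold 147 genes, and 137 of them are not among the 10. Of those 137, 122 were measured in 22Rv1, with a median change of -0.04. Of these, 1 was at least 2-fold higher, against 3.48% of all genes, and 2 (1.64%, against 1.02% of all genes) were at least 2-fold lower. In PC3, 119 were measured, with a median of -0.08. Of these, 2 were 2-fold higher, against 1.24% of all genes, and 7 (5.88%, against 2.64% of all genes) were 2-fold lower. With a pseudocount of 5, 0 of the 119 were 2-fold lower in PC3, against 0.66% of all genes. With the length trend removed 1 was (0.84%, against 1.94%). By limma, 0 of 125 tested were called, with 18 lower and 5 higher at an unadjusted p under 0.05. Those come to 18.4% of the 125, about the share over all genes, 18.5%. The smallest limma adjusted p was 0.0706, for ATP13A3, which was called under median centring at 0.0497 and had 0.657 with no filter.

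**Figure D5:**
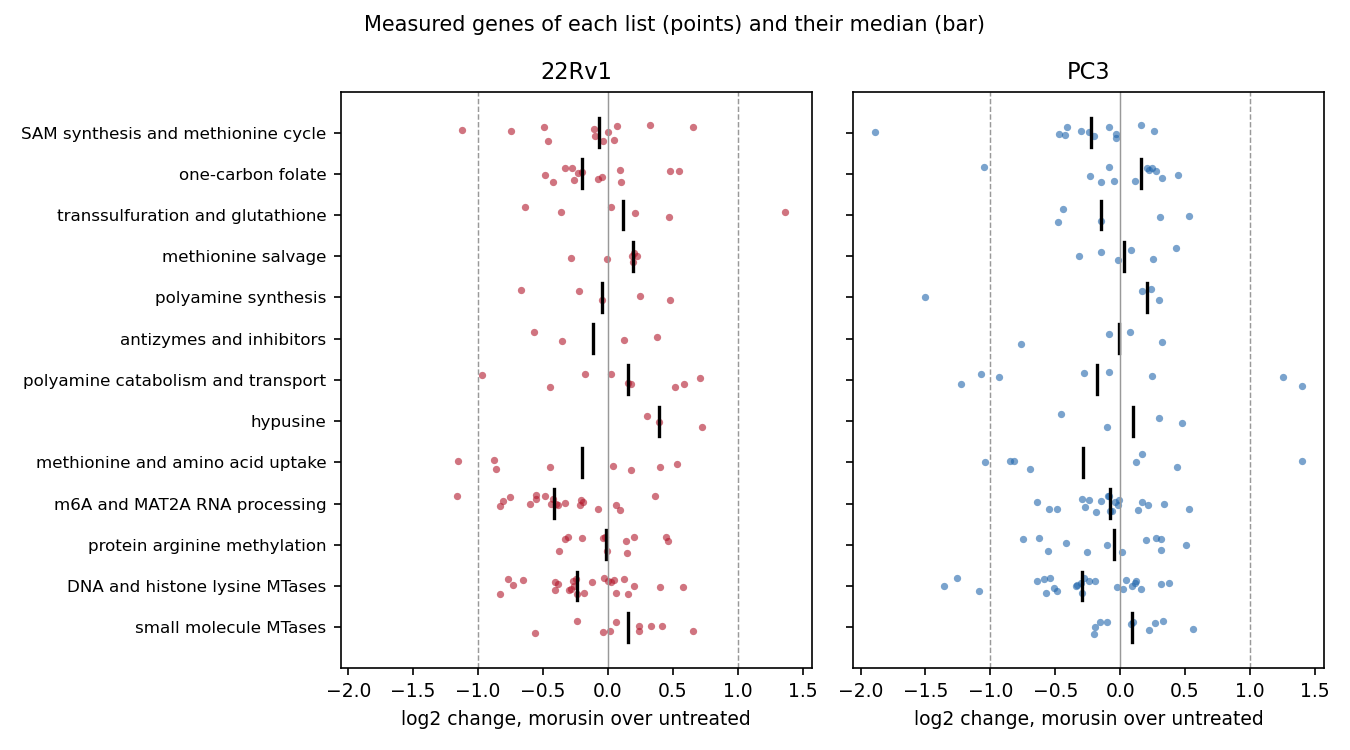
Log2 change of every measured gene of each pathway list, 22Rv1 and PC3 side by side, 1 point per gene, with the list's median marked. Medians lie between -0.41 (m6A genes in 22Rv1) and 0.39 (hypusine genes in 22Rv1). MAT2A, selected for its fall, is the lowest point of its list in both lines.

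MAT2A was selected for its fall, so it carries no weight that other methionine cycle genes lay nearer to their untreated levels. Of 12 measured genes of SAM synthesis and the methionine cycle, 1 was 2-fold lower in each line, the selected MAT2A itself. Among all measured genes the shares 2-fold lower were 1.02% in 22Rv1 and 2.64% in PC3. Medians of the list were -0.07 in 22Rv1 and -0.22 in PC3. AHCYL1, an AHCY-like protein, had 34.1 FPKM in morusin and 47.3 FPKM in untreated 22Rv1, and 26.1 and 27.8 FPKM in morusin and untreated PC3. MAT1A and BHMT, the liver forms of SAM synthesis and homocysteine methylation, were under 1 FPKM in every library. Of the folate genes, MTHFD1, the cytosolic folate dehydrogenase and synthase, had 57.3 and 60.4 FPKM in morusin and untreated 22Rv1, and 90.1 and 65.9 FPKM in morusin and untreated PC3.

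In the branch from homocysteine to glutathione and taurine, CSAD, a taurine synthesis enzyme, was the 1 of 6 genes 2-fold higher in 22Rv1, at 28.3 FPKM with morusin and 10.4 FPKM without. Over all measured genes, 3.48% were 2-fold higher in 22Rv1. In PC3 CSAD stood at 9.40 FPKM with morusin and 6.21 FPKM without, and 0 of 5 genes reached 2-fold. GCLC, the catalytic subunit of the rate-limiting step of glutathione synthesis, had 27.0 FPKM in morusin and 42.6 FPKM in untreated 22Rv1, and 14.9 FPKM in morusin and 20.6 FPKM in untreated PC3. Its partner GCLM, the modifier subunit, stood at 5.78 and 7.70 FPKM in morusin and untreated 22Rv1 and at 5.42 and 7.97 FPKM in morusin and untreated PC3. Methionine salvage held 6 measured genes in each line, with none at 2-fold and medians of 0.19 and 0.03.

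Among the genes that restrain ODC1 protein, OAZ1, the antizyme that sends ODC1 to the proteasome, had 440 FPKM in morusin and 339 FPKM in untreated 22Rv1, and 230 FPKM in morusin and 183 FPKM in untreated PC3. OAZ2, its relative, had 17.1 and 22.2 FPKM in morusin and untreated 22Rv1, and 29.3 and 50.5 FPKM in morusin and untreated PC3. AZIN1, which binds antizymes and spares ODC1, stood at 38.0 FPKM in morusin and 56.8 FPKM in untreated 22Rv1, and at 88.9 FPKM in morusin and 84.4 FPKM in untreated PC3. The AZIN1 to OAZ1 ratio was 0.0863 with morusin and 0.168 without in 22Rv1, and 0.387 with morusin and 0.460 without in PC3, the lower value with morusin in each line.

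Polyamine breakdown and transport genes showed 2-fold differences in both directions in PC3. SAT1, which acetylates spermidine and spermine for export or oxidation, stood at 15.8 FPKM in morusin and 10.2 FPKM in untreated 22Rv1, and at 46.9 FPKM in morusin and 19.0 FPKM in untreated PC3. SLC3A2, the heavy chain of amino acid exchangers and a polyamine export partner, had 249 FPKM in morusin and 220 FPKM in untreated 22Rv1, and 120 FPKM in morusin and 44.6 FPKM in untreated PC3. SAT1 and SLC3A2 are named for being 2-fold higher in PC3, and in the deposited values both stood higher with morusin in 22Rv1 too. ATP13A3, a polyamine transporter of the endosomal system, was lower in both lines, at 10.8 and 22.0 FPKM in morusin and untreated 22Rv1 and 7.03 and 17.8 FPKM in morusin and untreated PC3. Its relative ATP13A2, a lysosomal polyamine exporter, had 27.1 and 26.7 FPKM in morusin and untreated 22Rv1, and 3.29 and 8.01 FPKM in morusin and untreated PC3. Of 8 genes measured in PC3, 2 were 2-fold higher (SAT1 and SLC3A2) and 2 were 2-fold lower (ATP13A3 and ATP13A2), and of 9 in 22Rv1 none reached 2-fold. Over all measured genes, 1.24% were 2-fold higher and 2.64% lower in PC3, and 3.48% higher and 1.02% lower in 22Rv1. With a pseudocount of 5 or with the length trend removed, 0 of the 8 were 2-fold lower in PC3, and 2 were still 2-fold higher. ATP13A3 lay just short of the cut in 22Rv1, at -0.97. With a pseudocount of 0.1 or after rescaling, 1 of the 9 was 2-fold lower in 22Rv1, against 2.81% and 2.63% of all measured genes.

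EIF5A, the translation factor that spermidine modifies to hypusine, had 699 FPKM in morusin and 567 FPKM in untreated 22Rv1, and 438 FPKM in morusin and 315 FPKM in untreated PC3. DHPS, the enzyme of the first hypusine step, had 34.7 and 20.6 FPKM in morusin and untreated 22Rv1 and 33.3 and 26.9 FPKM in morusin and untreated PC3. None of the 3 hypusine genes measured in 22Rv1 or the 4 in PC3 reached 2-fold. Among the 8 uptake genes, 1 was 2-fold lower in each line, against 1.02% of all measured genes in 22Rv1 and 2.64% in PC3. In 22Rv1 it was SLC38A2, a neutral amino acid transporter, at 58.4 FPKM with morusin and 131 FPKM without. SLC38A2 stood at 159 FPKM in morusin and 258 FPKM in untreated PC3. In PC3 the 2-fold lower gene was SLC38A1, a related transporter, at 45.1 FPKM with morusin and 93.7 FPKM without, beside 42.7 and 78.2 FPKM in morusin and untreated 22Rv1. With the length trend removed, 0 of the 8 uptake genes were 2-fold lower in either line, and in PC3 this was also so with a pseudocount of 5 or median centring. SLC7A11, the cystine importer, had 2.30 and 5.07 FPKM in morusin and untreated 22Rv1 and 3.74 and 7.34 FPKM in morusin and untreated PC3.

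Of the 20 genes of m6A methylation and MAT2A RNA processing, 17 lay below 0 in 22Rv1 and 15 in PC3, that is 85% and 75%, against 50.6% and 55.8% of all measured genes, with medians of -0.41 and -0.08. YTHDF3, an m6A reader, stood at 13.6 FPKM in morusin and 31.6 FPKM in untreated 22Rv1, and at 30.1 FPKM in morusin and 23.6 FPKM in untreated PC3, opposite in direction. METTL14, a subunit of the main m6A writer, had 2.78 and 5.72 FPKM in morusin and untreated 22Rv1 and 2.78 and 3.03 FPKM in morusin and untreated PC3. With the length trend removed, 15 of the 20 lay below 0 in 22Rv1 and 10 of the 20 in PC3, with medians of -0.23 and -0.01. That is 75% and 50%, against 52.26% of all measured genes in 22Rv1 and 55.05% in PC3 under the same step. YTHDF3 was the 1 gene of the list at 2-fold lower in 22Rv1 (5%, against 1.02% of all measured genes), and with a pseudocount of 5 none was.

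Among the DNA and histone methyltransferases, which use SAM, 0 of 25 were 2-fold lower in 22Rv1 and 3 of 25 (12%) were in PC3. Over all measured genes the shares were 1.02% in 22Rv1 and 2.64% in PC3, and the difference between the lines was not tested. NSD1, a histone H3 lysine methyltransferase, stood at 9.68 FPKM in morusin and 18.0 FPKM in untreated 22Rv1, and at 8.75 FPKM in morusin and 22.3 FPKM in untreated PC3. KMT2D, which methylates histone H3 at enhancers, had 21.9 and 19.6 FPKM in morusin and untreated 22Rv1, and 4.32 and 12.6 FPKM in morusin and untreated PC3. SETD1B, a relative that acts mainly at promoters, had 18.7 and 24.8 FPKM in morusin and untreated 22Rv1, and 3.19 and 7.88 FPKM in morusin and untreated PC3. These genes are named for being 2-fold lower in PC3, so their direction there was fixed by the choice. In the deposited values KMT2D was not lower in 22Rv1. Of all 25, 17 lay below 0 in PC3 (68%, against 55.8% of all measured genes) and 16 in 22Rv1 (64%, against 50.6%). Without the length trend, 15 lay below 0 in PC3 (60%, against 55.05%) and 9 in 22Rv1 (36%, against 52.26%). With the length trend removed, 1 of the 25 (4%) was 2-fold lower in PC3, against 1.94% of all measured genes. With a pseudocount of 5, 0 were, against 0.66%. No gene of arginine methylation (12 measured in each line) or of small molecule methylation (10 in each line) reached 2-fold in either line.

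By the distance of log2(FPKM + 1) profiles, centred on each gene's mean over the 4 libraries, the genes most like MAT2A among 5071 protein-coding genes were HIPK2, DNAJC5, JADE2, MAVS, NF2, FAM168B, SKI and PLEKHB2. HIPK2, a protein kinase gene, was nearest, at a distance of 0.368, with 7.05 and 16.7 FPKM in morusin and untreated 22Rv1 and 11.3 and 31.3 FPKM in morusin and untreated PC3. PLEKHB2 lay at 0.626. For ODC1 the nearest were AGPAT1, TMEM254, EZR, SP3 and TDP2, at distances of 0.0357 to 0.0727. With 4 libraries, such a list names profiles of similar shape only.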

How the data were processed

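The authors deposited gene-level FPKM for 60617 Ensembl gene IDs in 4 libraries. Per the labels' protocols, RNA was column-extracted, made into libraries with the TruSeq RNA v2 kit and read as paired ends. The submitters' processing notes name Trimmomatic, HISAT2, StringTie and the build GRCh38; tool versions, annotation and strand setting are not stated there. An FPKM value depends on the total of its own library.

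Symbols came from a gene name table (60261 IDs matched), and positions and lengths from GENCODE 29, which may differ from the authors' annotation. Changes are log2((morusin FPKM + 1)/(untreated FPKM + 1)) for genes that reach 1 FPKM in either library of a line. With a lone library per condition, within-line values carry no p-value. The shared effect was fitted with limma 3.58.1 (R 4.3.3) on log2(FPKM + 1) with line as covariate and a variance trend, for genes at 1 FPKM or more in at least 2 libraries, with Benjamini-Hochberg adjustment. The step was first run on simulated data in which each changed gene had the same effect in both lines. That run therefore says nothing of how the fit behaves where the lines respond differently. Nothing says that cultures were separate. The 1 residual degree of freedom per gene is the difference between the lines in their change with morusin, where line, dose and medium are mixed. These p-values rest on that difference, with variances drawn together over all genes, and not on a spread between replicate cultures. Depth was taken from the commonest step of low values of single-exon genes (57 to 81 of 1158 to 1265 values at the step), and is rough. The steps were too sparse to give whole reads, so no count test was run. Python 3.11.15 was used for the rest.

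All 10 genes were named. From the other lists, the text names those at 2-fold in either line and some of the up to 4 with the largest change at 5 FPKM or more; the other named genes were chosen after their values were seen. A result that this rule would name is not reported here. Genes most like MAT2A were the 8 nearest among protein-coding genes at 20 FPKM or more. The genes and lists were chosen with earlier results of these data known. Alternatives were pseudocounts of 0.1 and 5, no filter, median centring, rescaling to a common FPKM sum, removal of a length trend and limma without a variance trend.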

Additional observations from a re-analysis of the deposited data

Results flagged for a closer look

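For 7 genes, among the 10 and the pathway genes with the largest changes, the change with morusin had opposite signs in the 2 lines, each past 1.96 estimated counting errors; with 1 library per group the difference was not tested. As the log2 change in 22Rv1 minus that in PC3, it was -1.50 for YTHDF3, -0.65 for ICMT, -0.64 for AZIN1, -0.52 for MTHFD1, -0.39 for ODC1, 0.35 for APIP and 1.51 for KMT2D. The changes themselves were -1.16 in 22Rv1 and 0.34 in PC3 for YTHDF3, and 0.15 in 22Rv1 and -1.36 in PC3 for KMT2D. Signs of small changes depend on scaling: rescaling to a common FPKM sum moved the all-gene median from -0.01 to -0.18 in 22Rv1 and from -0.05 to -0.14 in PC3. The changes of KMT2D and APIP (0.20) in 22Rv1, and of AZIN1 (0.07) and ICMT (0.08) in PC3, are of about that size, so their signs are not settled. ODC1 kept opposite signs after rescaling, at -0.42 in 22Rv1 and 0.07 in PC3.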

How the results depend on the processing

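The log2 change of MAT2A in 22Rv1 was -1.12, and -1.05 with a pseudocount of 5 and -1.32 after rescaling. In PC3 it was -1.89, and -1.81 with a pseudocount of 5, -1.84 with median centring and -1.99 after rescaling. Listed genes at least 2-fold lower numbered 3 in 22Rv1, against 6 with a pseudocount of 0.1 and 7 after rescaling. In PC3 they numbered 9, against 2 with a pseudocount of 5 and 3 with the length trend removed. These counts hold MAT2A in both lines and AMD1 in PC3. The share of all measured genes moved the same way. In 22Rv1 it was 1.02%, against 2.81% with a pseudocount of 0.1 and 2.63% after rescaling. In PC3 it was 2.64%, against 0.66% with a pseudocount of 5 and 1.94% with the length trend removed. The limma fit called 33 genes lower and 49 higher, against 15 and 18 with a pseudocount of 5, 0 and 0 with no filter (2323 at an unadjusted p under 0.05), 156 higher with median centring and 29 higher without a variance trend; 59.8% of calls were higher as deposited and 77.2% under centring, where the median effect was 0.07 in place of -0.04. The limma effect of ODC1 was -0.03, and 0.087 with median centring. The causes were not tested beyond what each setting itself alters. Of 70 alternative values of the main results, 55 held. These include the within-line values with no filter, which could not differ from the main ones by construction. They also include counts that hold MAT2A, which was selected on its change. MAT2A, MAT2B, MTR, AMD1, SRM, SMS and ODC1 held their sign in both lines under every setting tried; METTL16 and AHCY did not in either line, nor did MTAP in 22Rv1. The limma fit pairs the libraries by line, the labels give no replicate numbers for another pairing, and leaving out a library would leave the fit no residual degrees of freedom. Depth limits low genes most: METTL16 rested on 664 estimated read pairs in morusin 22Rv1.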
